A study of Bos taurus with 10 samples.

Results

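The 7 genes described here encode zinc-dependent lysine deacetylases: *HDAC1*, *HDAC2*, *HDAC3* and *HDAC8* of class I, *HDAC6* and *HDAC10* of class IIb, and *HDAC11*, the sole member of class IV. All 7 were found by symbol among the 20112 genes of the expression table. *HDAC8* was chosen by its measured normalized read counts, which were far lower in *SOX2* KO than in WT embryos, so its level and fold change are given as a description without a test. The other 6 genes were taken because they share its family, whatever their values.

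The measurements come from RNA-seq of single bovine early blastocysts, 5 WT and 5 *SOX2* KO, collected at D7.5 according to the methods and at day 7.0 according to the sample labels. All embryos were produced in vitro and injected as zygotes. WT embryos received mRNA of BE3, a cytosine base editor that can turn a glutamine, arginine or tryptophan codon into a stop codon, without any sgRNA. *SOX2* KO embryos received BE3 mRNA together with sgRNAs against *SOX2*, so both groups carried the editor. Editing starts after fertilization and can differ between the cells of an embryo. Each library holds a whole blastocyst with trophectoderm and inner cell mass, and fewer cells of a type cannot be told apart from less RNA per cell. The columns of the table name the WT embryos nc1 to nc5 and the *SOX2* KO embryos ko1 to ko5.

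Deacetylases of these classes use a zinc ion to remove acetyl groups, or longer acyl groups, from lysines or other amines. HDAC1 and HDAC2 are close paralogs that work as the catalytic pair of the NuRD, SIN3, CoREST and MiDAC corepressor complexes, and HDAC3 is the enzyme of the NCoR corepressor. HDAC8 acts without such a complex, and its best known substrate is SMC3, a subunit of the cohesin ring, which HDAC8 deacetylates so that cohesin can be used again after mitosis. HDAC6 is mainly cytoplasmic and deacetylates alpha-tubulin, HDAC10 deacetylates acetylated polyamines, and HDAC11 removes fatty acyl groups. *HDAC8* and *HDAC6* lie on the X chromosome in mammals.

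Values are normalized read counts, the reads of a gene divided by the size factor of the embryo. Reads on genes ranged from 2223670 to 5134855 in WT embryos against 2578284 to 4337342 in *SOX2* KO embryos. The 18S ribosomal RNA gene *RN18S1* took 26.4% to 37.0% of them in WT embryos against 32.5% to 45.0% in *SOX2* KO embryos. *SOX2* mRNA, whose sequence base editing alters without deleting the gene, ranged from 56.5 to 93.4 in WT embryos against 26.4 to 82.1 in *SOX2* KO embryos, so its level does not check the labels. Per the paper, the sequenced embryos were genotyped on part of their cDNA. *NANOG*, a pluripotency factor of the epiblast, ranged from 17.6 to 148 in WT embryos against 0 to 7.39 in *SOX2* KO embryos. Fold changes are differences of log2(normalized read count + 1), *SOX2* KO minus WT, and they understate the change of genes with few reads. Tests were made with limma over the 20056 genes averaging 1 or more, with Benjamini-Hochberg adjustment over all of them. They set the difference between the group means against the spread between embryos. A gene was called when its adjusted p was at most 0.05 and its fold change at least 2 or at most 0.5. The levels of different genes are not ranked against each other, because transcript lengths of the build used were not at hand.

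*HDAC8* was the deacetylase with the largest difference of the 7. Its normalized read counts were 461, 411, 351, 395 and 449 in the WT embryos nc1 to nc5, and 86.8, 120, 137, 117 and 93.4 in the *SOX2* KO embryos ko1 to ko5. The groups were far apart, since the lowest WT embryo stood at 351 and the highest *SOX2* KO embryo at 137. The WT mean was 413 ± 44.0 and the *SOX2* KO mean 111 ± 20.7 (SD, n = 5 each), which is a log2 fold change of -1.90 with a standard error of 0.16, or 0.268 of the WT level. *HDAC8* transcripts were still counted in every *SOX2* KO embryo, with 78 to 143 reads each, against 277 to 760 reads in WT embryos. Within groups the gene was steady. The highest WT embryo had 1.31 times the value of the lowest, and the highest *SOX2* KO embryo 1.58 times. The coefficient of variation was 10.6% among WT and 18.6% among *SOX2* KO embryos, where counting of reads alone would give 4.47% and 9.89%. Among the 6982 genes averaging 50 or more, *HDAC8* stood at place 22 from the most negative log2 fold change. Leaving out each embryo in turn gave log2 fold changes between -1.98 and -1.82.

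**Figure D1:**
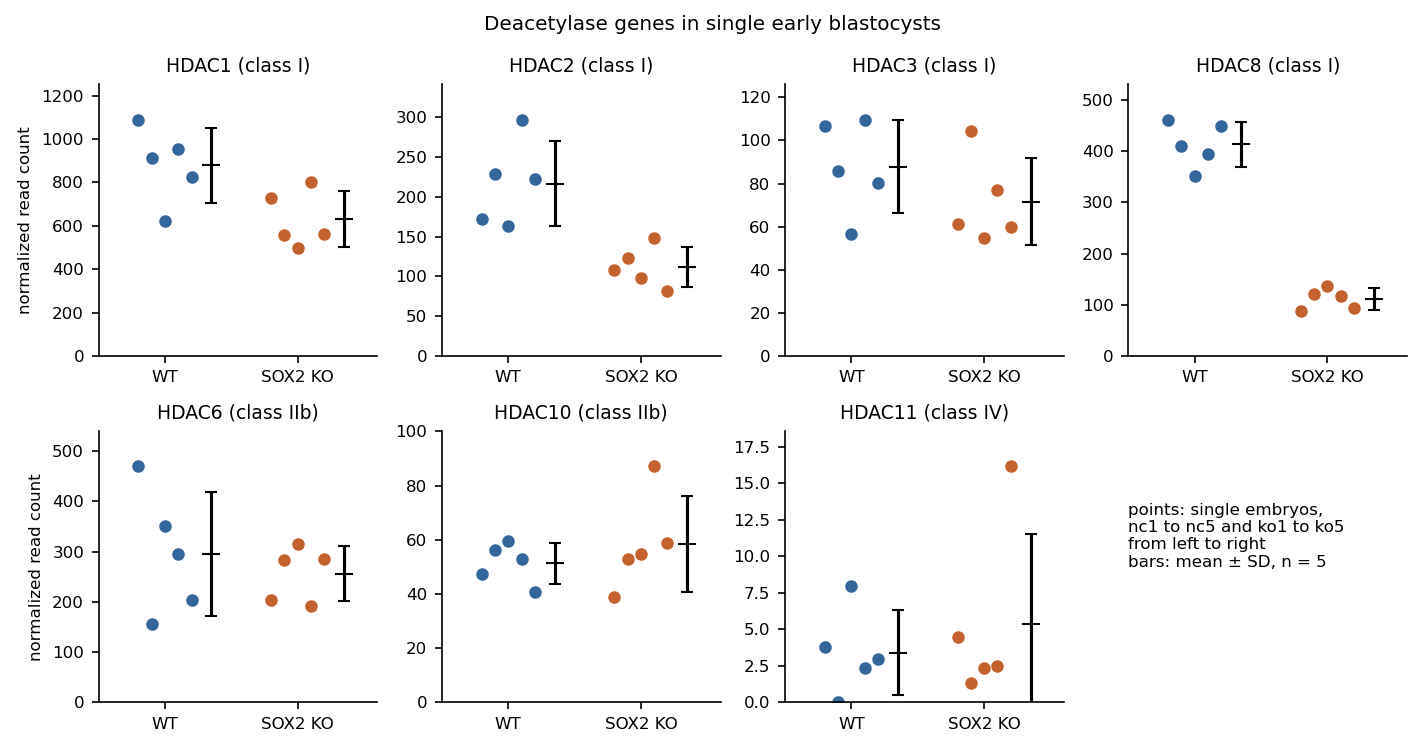
Normalized read counts of the 7 deacetylase genes in single early blastocysts. Each point is an embryo (nc1 to nc5 for WT, ko1 to ko5 for *SOX2* KO, from left to right), bars give the mean ± SD (n = 5), every panel has its own axis from 0, and the lower end of the *HDAC11* bar in *SOX2* KO runs below the axis. In the *HDAC8* panel WT embryos span 351 to 461 and *SOX2* KO embryos 86.8 to 137, in the *HDAC2* panel the groups are also apart, and in the other 5 panels they overlap.

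*HDAC2* was lower in *SOX2* KO embryos as well, with about 0.52 of the WT level. It had 172, 228, 163, 297 and 222 normalized reads in WT embryos and 108, 123, 97.7, 148 and 81.9 in *SOX2* KO embryos. No *SOX2* KO embryo reached the lowest WT embryo, although ko4 at 148 came close to nc3 at 163. The WT mean was 217 ± 53.4 and the *SOX2* KO mean 112 ± 25.2 (SD, n = 5 each), and the log2 fold change was -0.94 (SE 0.20, 95% interval -1.36 to -0.53, limma adjusted p = 0.00523). *HDAC2* thus passed the adjusted p but was not called, since 0.520 is just above the fold threshold of 0.5. The fall kept an adjusted p of at most 0.05 when any single embryo was left out, and it also passed the fold threshold without nc1 (-1.02), nc3 (-1.04) or ko4 (-1.05). It was -0.59 with a limma adjusted p of 0.207 when the *RN18S1* percentage entered as a covariate, and the adjusted p was between 0.000662 and 0.00824 under the other alternatives that kept all embryos. The *RN18S1* percentages of the groups overlapped, as given above.

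*HDAC1*, the paralog that shares its complexes with *HDAC2*, had 1088, 912, 620, 952 and 823 normalized reads in WT embryos and 728, 559, 495, 803 and 564 in *SOX2* KO embryos. The groups overlapped through nc3, the lowest WT embryo, which lay below ko1 and ko4. The log2 fold change was -0.48 (SE 0.17, 95% interval -0.84 to -0.12) from means of 879 ± 173 to 630 ± 129 (SD, n = 5 each), and it missed the threshold (limma adjusted p = 0.0685, unadjusted p = 0.0120). The adjusted p was 0.0215 without nc3, 0.0228 without ko4 and 0.0331 when all embryos were scaled to equal totals, and 0.0468 with edgeR, and it lay between 0.0570 and 0.575 under the other alternatives that kept all embryos.

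*HDAC3*, the enzyme of the NCoR corepressor, had 107, 86.0, 56.7, 110 and 80.3 normalized reads in WT embryos and 61.2, 104, 54.7, 77.2 and 60.0 in *SOX2* KO embryos. The groups overlapped over most of their range. The log2 fold change of -0.30 (SE 0.23, 95% interval -0.77 to 0.18) did not pass the test (limma adjusted p = 0.378). The interval allows a fall as well as a slight rise, and the value was -0.03 with the *RN18S1* percentage as a covariate.

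Summed over *HDAC1*, *HDAC2* and *HDAC3*, the class I enzymes of the corepressor complexes had 840 to 1368 normalized reads in WT embryos against 648 to 1028 in *SOX2* KO embryos, a ratio of means of 0.687. With *HDAC8* added the sums were 1191 to 1829 and 785 to 1145, a ratio of 0.579. Ratios of reads within a library do not depend on the scaling. Per 100 *HDAC1* reads there were 41.5 to 56.6 *HDAC8* reads in WT embryos and 11.9 to 27.7 in *SOX2* KO embryos. Per 100 *HDAC3* reads the ranges were 360 to 619 and 115 to 251. Per 100 *HDAC2* reads they were 133 to 267 and 79.4 to 140, and here the groups overlapped. As these ratios contain *HDAC8*, they are descriptions without a test.

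*HDAC6*, the tubulin deacetylase of class IIb, had 469, 156, 350, 294 and 204 normalized reads in WT embryos and 204, 284, 315, 191 and 285 in *SOX2* KO embryos. All 5 *SOX2* KO embryos lay inside the WT range, which was wide, nc1 having 3.01 times the value of nc2. The log2 fold change was -0.13 (SE 0.24, 95% interval -0.62 to 0.37, limma adjusted p = 0.749), and it was 0.07 without nc1 and -0.58 (adjusted p = 0.303) with the *RN18S1* percentage as a covariate. Of the X-linked pair, *HDAC6* was thus at 0.917 of WT and *HDAC8* at 0.268, and the WT coefficient of variation was 42.0% for *HDAC6* and 10.6% for *HDAC8*. Per 100 *HDAC6* reads there were 98.2 to 264 *HDAC8* reads in WT embryos against 32.8 to 61.4 in *SOX2* KO embryos.

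*HDAC10*, the polyamine deacetylase, had 47.3, 56.4, 59.7, 52.8 and 40.7 normalized reads in WT embryos and 39.0, 52.8, 54.7, 87.1 and 58.8 in *SOX2* KO embryos. Apart from ko4 at 87.1, the *SOX2* KO embryos lay within or just below the WT range. The log2 fold change was 0.15 (SE 0.23, 95% interval -0.34 to 0.64, limma adjusted p = 0.694), and -0.01 without ko4.

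*HDAC11* was close to the limit of detection, with 0 to 8 reads per WT embryo and 1 to 14 per *SOX2* KO embryo, where 3 reads were taken as the floor. Its normalized read counts were 3.82, 0, 7.95, 2.33 and 2.95 in WT embryos against 4.45, 1.32, 2.33, 2.46 and 16.1 in *SOX2* KO embryos. A difference was not detectable at this depth (log2 fold change 0.43, SE 0.65, 95% interval -0.93 to 1.78, limma adjusted p = 0.680). The value was -0.03 without nc2 or without ko5, and -0.47 after quantile normalization.

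Of the 6 deacetylases other than *HDAC8*, 0 were called lower and 0 higher by limma, while 1.16% of all tested genes were called lower and 8.93% higher. At the adjusted p alone, 1 of the 6 was lower (*HDAC2*) and 0 were higher, against 3.2% and 10.4% of all tested genes. At an unadjusted p under 0.05 there were 2 of the 6, *HDAC1* and *HDAC2*, both lower, against 8.37% of all tested genes lower and 24% higher. edgeR on the recovered reads called 1 of the 6 lower and 0 higher, against 1.49% and 8.41% of all tested genes, and 4.44% were lower and 9.45% higher by its adjusted p alone. DESeq2 called 0 of the 6, against 1.26% of genes lower and 9.83% higher, and 4.01% were lower and 11.6% higher by its adjusted p alone. The groups were apart in 1 of the 6, with *SOX2* KO below WT, against 2.76% of all tested genes apart in that direction and 6.41% with *SOX2* KO above WT. The median log2 fold change of the 6 was -0.21, with 4 below zero. It was 0.25 over all tested genes and -0.09 over the 6982 genes averaging 50 or more, of which 60.1% were below zero. All of the 6 but *HDAC11* averaged 50 or more. Among genes at that level limma called 1.52% lower and 2.68% higher. By limma's adjusted p 7.16% were lower and 6.50% higher, and at an unadjusted p under 0.05 these were 17.9% and 12.4%.

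**Figure D2:**
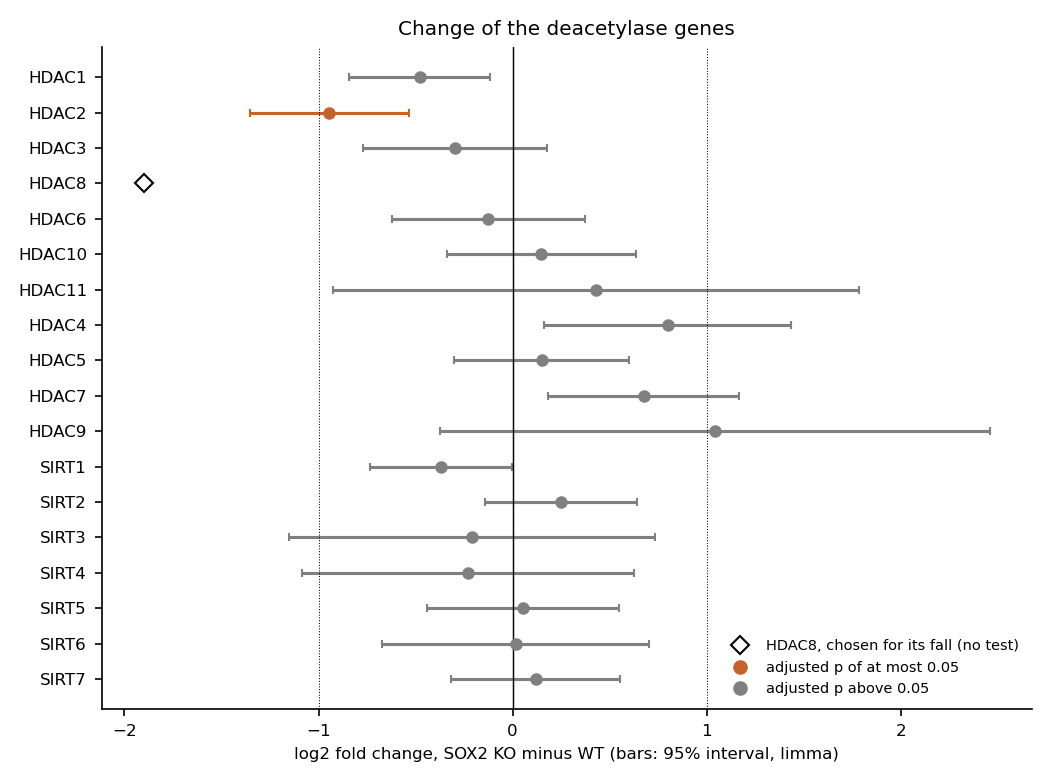
Log2 fold changes of the deacetylase genes, *SOX2* KO minus WT, with 95% intervals from limma for 17 genes and dotted lines at the fold thresholds. *HDAC8* is drawn as an open diamond at -1.90 without an interval because it was chosen for its fall, *HDAC2* in orange has an adjusted p of at most 0.05, and the grey genes do not.

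Markers of cell types were examined beside these values. The paper found OCT4, the protein of *POU5F1*, and NANOG in trophectoderm as well as inner cell mass at D7.5. *POU5F1* and *NANOG*, both in the epiblast list, thus do not mark the inner cell mass alone at this stage. Of 9 epiblast markers tested, 9 were below zero and 8 had a limma adjusted p of at most 0.05, and their summed level was 2794 to 3351 in WT embryos against 1243 to 1607 in *SOX2* KO embryos. Of 9 primitive endoderm markers, 3 were lower and 0 higher by adjusted p, with sums of 3054 to 3755 and 3124 to 3800. Of 10 trophectoderm markers, 1 was lower and 2 were higher, with overlapping sums of 24616 to 36653 and 34586 to 48638. Of 7 cumulus cell markers 7 were above zero, and *NR5A1* was at 0 in every WT embryo and at 1.32 to 11.5 in *SOX2* KO embryos. Of 4 sperm markers 2 were above zero, and *AKAP4* was at 0 in every WT embryo and at 0 to 6.60 in *SOX2* KO embryos. *NR5A1* and *AKAP4* passed the filter at a mean of 1 only through *SOX2* KO embryos. They could therefore only rise and are described without a test. The remaining cumulus and sperm markers did not pass limma's adjusted p. The cumulus sums were 10.4 to 60.6 in WT embryos against 35.3 to 72.6 in *SOX2* KO embryos, and the sperm sums 1.48 to 36.6 against 4.11 to 17.4. Over all tested genes 3.2% were lower and 10.4% higher by limma's adjusted p, and 37.1% were below zero. Among genes averaging 50 or more these shares were 7.16%, 6.50% and 60.1%. The cumulus and sperm markers all averaged under 50, and *NR5A1* and *AKAP4* had few reads, with *SOX2* KO means of 6.53 and 3.16. In these lists 0 of the tested markers were at 0 in all embryos. The part of such cell types in the levels of the deacetylases was not tested.

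The remaining deacetylases served as a comparison. Class IIa enzymes (*HDAC4*, *HDAC5*, *HDAC7* and *HDAC9*) are signal-regulated corepressors with weak catalytic activity of their own, and all 4 were above zero under every scaling and count test run, with a median log2 fold change of 0.74. None of the 4 passed limma's adjusted p. *HDAC7* was nearest, with 52.7, 59.3, 95.5, 53.6 and 57.3 normalized reads in WT embryos against 120, 92.4, 110, 59.1 and 135 in *SOX2* KO embryos (log2 fold change 0.68, SE 0.24, limma adjusted p = 0.0602). Its groups overlapped through nc3 and ko4. *HDAC4* followed at 0.80 (SE 0.31, limma adjusted p = 0.0810), and *HDAC5* at 0.15 (SE 0.22, adjusted p = 0.663) and *HDAC9* at 1.04 (SE 0.68, adjusted p = 0.294), the latter with means under 10, were farther from the threshold. At an unadjusted p under 0.05 limma passed 2 of the 4, *HDAC4* and *HDAC7*. DESeq2 gave an adjusted p of at most 0.05 for 2 of the 4, and edgeR for 0. Over all tested genes 37.1% were below zero in limma, and 24% were higher at an unadjusted p under 0.05. By adjusted p, 11.6% were higher with DESeq2 and 9.45% with edgeR. *HDAC4* and *HDAC9* averaged under 50, and among genes averaging 50 or more 12.4% were higher at limma's unadjusted p.

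Sirtuins are deacetylases of another fold that use NAD in place of zinc. Of the 7, 3 were below and 4 above zero with a median log2 fold change of 0.02, and 0 had a limma adjusted p of at most 0.05, with 1 at an unadjusted p under 0.05. *SIRT1*, a nuclear sirtuin, was the lowest at -0.37 (SE 0.18, limma adjusted p = 0.148), and *SIRT2*, a cytoplasmic one, the highest at 0.25 (SE 0.19, adjusted p = 0.368). With DESeq2 and edgeR the count of sirtuins passing the adjusted p was also 0.

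Subunits of the complexes in which HDAC1, HDAC2 and HDAC3 work are read against the 3.2% lower and 10.4% higher by adjusted p among all tested genes. Most of these subunits averaged 50 or more, and at that level the shares were 7.16% and 6.50%. At an unadjusted p under 0.05, limma had 8.37% of all tested genes lower and 24% higher. Among genes averaging 50 or more these were 17.9% and 12.4%. Of 13 NuRD subunits, 1 rose and 0 fell by limma's adjusted p (2 and 1 at an unadjusted p under 0.05, 2 and 0 with DESeq2, and 2 and 1 with edgeR), and the median log2 fold change was -0.00. The one that rose was *CHD3*, a remodelling ATPase of NuRD, with 32.8, 19.3, 48.7, 35.0 and 27.7 normalized reads in WT embryos against 94.6, 67.3, 80.2, 40.3 and 68.0 in *SOX2* KO embryos. All *SOX2* KO embryos but ko4 lay above the WT range, and the log2 fold change was 1.08 (SE 0.28, limma adjusted p = 0.0160). Without ko1 it was 0.96 with an adjusted p of 0.0551, and without nc2 it was 0.92, below the fold threshold. At the ends of the list, *CHD5*, another of these ATPases, had 1.31 (SE 0.45, adjusted p = 0.0567) and *MTA3*, a scaffold subunit, -0.66 (SE 0.22, adjusted p = 0.0542 in limma).

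Of 13 SIN3 subunits 0 passed limma's adjusted p and 1 an unadjusted p under 0.05, with a median of 0.02, while edgeR passed 1 and DESeq2 0. *SIN3A*, the scaffold, was the lowest at -0.44 (SE 0.17, adjusted p = 0.0924), with groups apart at 132 to 225 in WT embryos against 112 to 122 in *SOX2* KO embryos. *ARID4B*, a DNA-binding subunit, was the highest at 0.18 (SE 0.17, adjusted p = 0.493). In the CoREST and MiDAC list, 1 of 9 subunits rose, *TRERF1* of MiDAC, from 23.8 ± 4.46 to 52.9 ± 14.5 (SD, n = 5 each). The *TRERF1* groups were apart, with 17.1 to 29.0 in WT embryos against 29.6 to 66.3 in *SOX2* KO embryos, and the log2 fold change was 1.09 (SE 0.28, limma adjusted p = 0.0154), falling just under the fold threshold without ko3 or nc5 (0.996 and 0.98). *PHF21A*, a CoREST subunit that reads histone H3, was the lowest of that list at -0.55 (SE 0.37, adjusted p = 0.303). Of 4 NCoR subunits 0 passed limma's adjusted p and 1 an unadjusted p under 0.05, and DESeq2 and edgeR also passed 0 by adjusted p. They ran from -0.39 for *TBL1XR1* (SE 0.16, limma adjusted p = 0.103) to -0.05 for *GPS2* (SE 0.22, limma adjusted p = 0.902). The medians of the NuRD, SIN3, CoREST and MiDAC, and sirtuin lists changed sign between scalings, and 2 to 4 of the NCoR subunits were below zero, so no direction is given for these lists.

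Cohesin holds SMC3, the substrate of HDAC8. All 14 genes for the ring and its regulators were below zero, with 13 of 14 below zero under equal totals without *RN18S1*, the median log ratio and quantile normalization. The median log2 fold change was -0.38, and between -0.51 and -0.28 under the other scalings and count tests, beside -0.09 over genes averaging 50 or more. Their summed level was 2876 to 3235 in WT embryos against 2283 to 2382 in *SOX2* KO embryos. By limma's adjusted p, 4 of the 14 fell and 0 rose (8 and 0 at an unadjusted p under 0.05), and 1 of them was called. Over all tested genes 3.2% were lower by adjusted p, 8.37% at an unadjusted p and 1.16% by call, and among genes averaging 50 or more these shares were 7.16%, 17.9% and 1.52%. DESeq2 and edgeR each passed 6 lower and 0 higher by adjusted p.

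*ESCO2*, an acetyltransferase that acetylates SMC3 in S phase and so opposes HDAC8 on this substrate, was the called gene. It had 55.7, 60.8, 53.7, 85.5 and 83.8 normalized reads in WT embryos against 26.7, 42.3, 31.4, 34.5 and 27.7 in *SOX2* KO embryos, with groups apart and a log2 fold change of -1.03 (SE 0.24, limma adjusted p = 0.00908). It stayed just short of the fold threshold, at -0.98 to -0.94, without nc4, nc5, ko1 or ko5. *STAG2*, the more common of the SA subunits and an X-linked gene, had 513, 313, 565, 557 and 488 in WT embryos against 254, 284, 294, 170 and 270 in *SOX2* KO embryos. In *STAG2* the groups were apart by the small gap between nc2 and ko3, and the log2 fold change was -0.93 (SE 0.19, limma adjusted p = 0.00392). It was -1.08 without nc2 and -0.79 without ko4. *SMC1A*, the ring partner of SMC3 and also X-linked, fell from 274 ± 35.6 to 176 ± 41.9 (SD, n = 5 each), a log2 fold change of -0.67 (SE 0.19, limma adjusted p = 0.0236). Its adjusted p was 0.0634 without nc1, 0.0537 without nc5 and 0.0527 without ko5, and it was also above 0.05 under the median log ratio and quantile normalization. Without ko4 the log2 fold change of *SMC1A* was -0.49. *WAPL*, which releases cohesin from chromatin, fell from 375 ± 25.4 to 255 ± 16.9 (SD, n = 5 each), a log2 fold change of -0.56 (SE 0.14, limma adjusted p = 0.0140). *SMC3* itself had 331, 340, 254, 343 and 286 in WT embryos against 246, 221, 213, 317 and 240 in *SOX2* KO embryos. Its groups overlapped through ko4, and the log2 fold change of -0.33 (SE 0.16, 95% interval -0.66 to -0.01) missed the threshold after adjustment (limma adjusted p = 0.148). *PDS5A*, a cohesin cofactor, was the highest of the list at -0.00 (SE 0.15, limma adjusted p = 0.993).

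**Figure D3:**
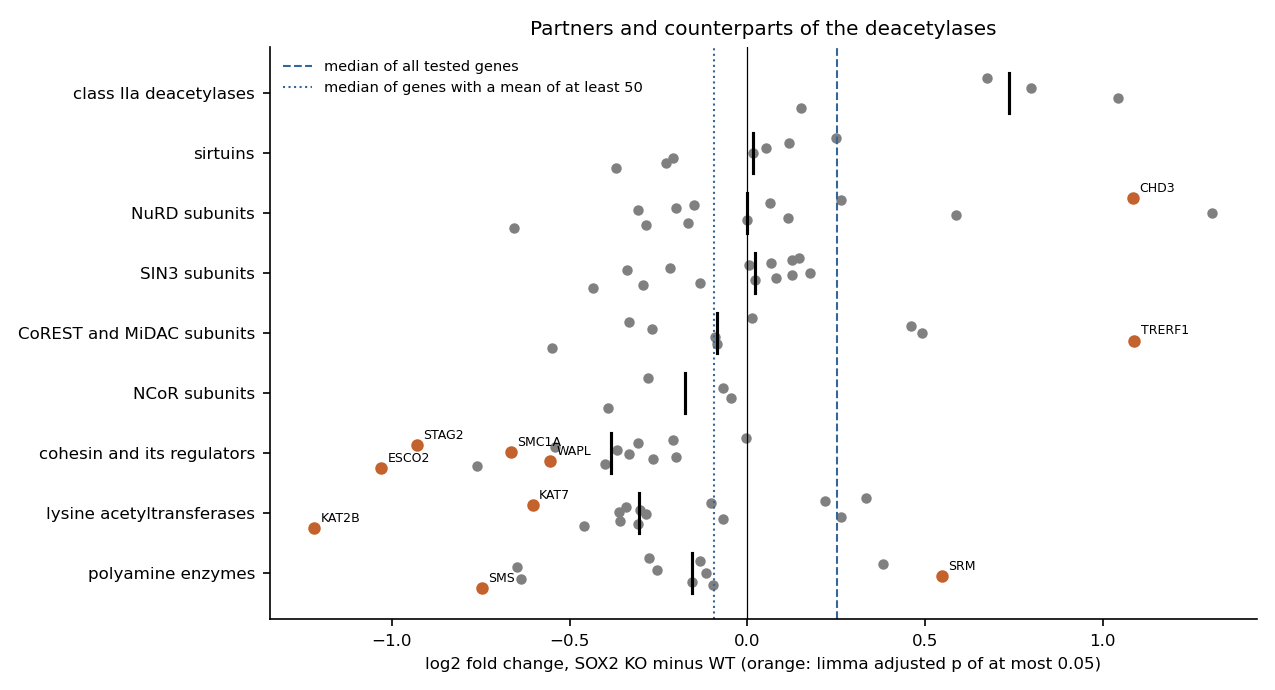
Log2 fold changes, *SOX2* KO minus WT, of the 89 tested genes in 9 lists of other deacetylases, partner complexes, cohesin, acetyltransferases and polyamine enzymes. Each point is a gene (orange and named for a limma adjusted p of at most 0.05), short black bars are list medians, and blue lines mark the medians of all tested genes (dashed, 0.25) and of genes averaging 50 or more (dotted, -0.09). All cohesin points lie at or left of zero and all class IIa points right of it.

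Lysine acetyltransferases add the groups that deacetylases remove. Of 14, 11 were below zero, with 9 of 14 under the median log ratio, and the median log2 fold change was -0.31, negative under every scaling run. By limma's adjusted p, 2 fell and 0 rose (4 and 0 at an unadjusted p under 0.05, and 2 and 0 with DESeq2 and with edgeR), beside 7.16% lower and 6.50% higher by limma's adjusted p among genes averaging 50 or more. *KAT2B*, the PCAF enzyme of the SAGA-type complexes, was called, with 155, 178, 168, 135 and 165 normalized reads in WT embryos against 81.3, 68.7, 74.4, 79.7 and 43.8 in *SOX2* KO embryos. The *KAT2B* groups were far apart, and the log2 fold change was -1.22 (SE 0.19, limma adjusted p = 0.000624). *KAT7*, a MYST family enzyme, fell from 339 ± 40.8 to 224 ± 36.8 (SD, n = 5 each), a log2 fold change of -0.60 (SE 0.16, limma adjusted p = 0.0192), with an adjusted p of 0.0507 without nc1 and 0.0646 without ko5. *KAT6A*, of the same family, was the highest of the list at 0.33 (SE 0.25, adjusted p = 0.360).

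Polyamine enzymes make and break down the substrates of HDAC10. Of 11, 9 were below zero, with 8 of 11 under the median log ratio, and the median log2 fold change was -0.16. *SMS*, the X-linked spermine synthase, fell from 216 ± 50.2 to 128 ± 28.6 (SD, n = 5 each), a log2 fold change of -0.75 (SE 0.19, limma adjusted p = 0.0169), with groups apart at 169 to 296 and 89.5 to 164, and its adjusted p was 0.0505 without nc5. *SRM*, the spermidine synthase, rose from 886 ± 133 to 1322 ± 361 (SD, n = 5 each), a log2 fold change of 0.55 (SE 0.18, limma adjusted p = 0.0467). The rise of *SRM* kept a limma adjusted p of at most 0.05 without ko2, ko3 or nc4 and lost it without any of the other 7 embryos (0.0633 to 0.142), and it was also lost with edgeR (0.0798), equal totals (0.0893), a filter at a mean of 10 (0.0614) and pseudocounts of 0.1 (0.0564) and 5 (0.0504). Over the 9 lists, 2 of the 89 tested genes were called lower (2.25%) and 2 higher (2.25%), beside the 1.16% and 8.93% of all tested genes given above. Most of the listed genes averaged 50 or more, and at that level 1.52% of genes were called lower and 2.68% higher. When the *RN18S1* percentage entered as a covariate, *STAG2* (adjusted p = 0.00597) and *KAT2B* (adjusted p = 0.0396) kept a limma adjusted p of at most 0.05, and the other 8 genes of the lists that had passed did not (0.122 to 0.349).

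The tested genes beside *HDAC8* on the chromosome were mostly without a difference past the test. In the gene order of the RefSeq table, *MIR421*, *XIST*, *CHIC1*, *CDX4* and *PHKA1* come before it and *CITED1*, *RPS4X*, *ERCC6L*, *PIN4* and *NHSL2* after it. Of these 10, 3 were below zero, the median log2 fold change was 0.12, and 1 fell by limma's adjusted p while 0 were called. Over all tested genes 37.1% were below zero, the median was 0.25, and 3.2% were lower by adjusted p. Among genes averaging 50 or more these values were 60.1%, -0.09 and 7.16%. The neighbour that fell was *ERCC6L*, a DNA translocase of mitotic chromosomes, with 260, 206, 243, 227 and 264 normalized reads in WT embryos against 148, 180, 144, 103 and 190 in *SOX2* KO embryos. The *ERCC6L* groups were apart, and the log2 fold change was -0.67 (SE 0.18, limma adjusted p = 0.0182), with an adjusted p of 0.0504 under the median log ratio and 0.0530 with the *RN18S1* covariate. The nearest genes were *PHKA1*, a subunit of phosphorylase kinase, at -0.69 (SE 0.27, adjusted p = 0.0842) with overlapping groups, and *CITED1*, a transcriptional coactivator, at 0.33 (SE 0.38, adjusted p = 0.571). *RPS4X*, a ribosomal protein gene, had -0.26 (SE 0.22, adjusted p = 0.440), *PIN4*, a prolyl isomerase, 0.11 (SE 0.30, adjusted p = 0.831) and *NHSL2* 0.74 (SE 0.43, adjusted p = 0.236). *MIR421*, *CHIC1* and *CDX4* had means under 5 in both groups.

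**Figure D4:**
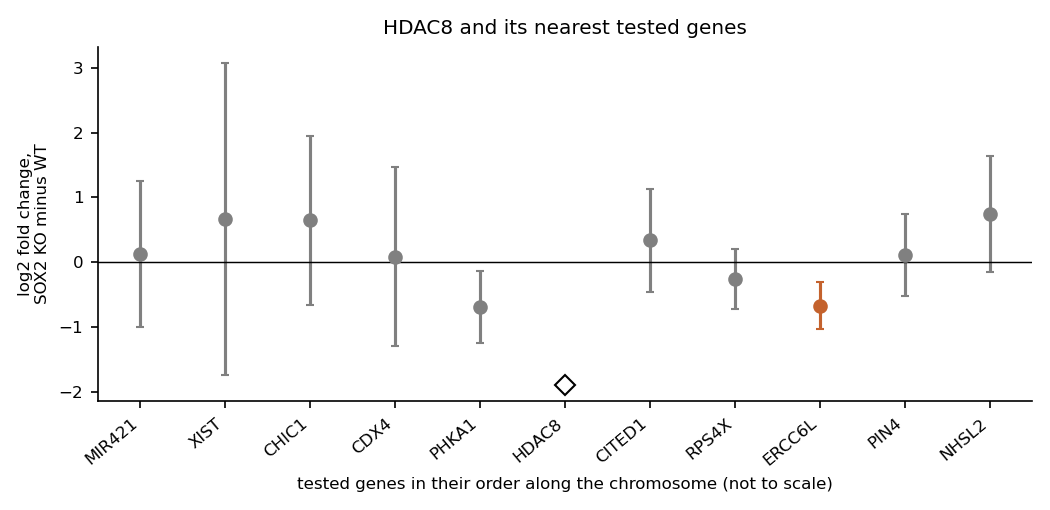
Log2 fold changes, *SOX2* KO minus WT, of *HDAC8* and the 5 tested genes on each side of it, in their order along the chromosome and not to scale, with 95% intervals from limma. *HDAC8* is the open diamond at -1.90 without a test, *ERCC6L* in orange at -0.67 has an adjusted p of at most 0.05, and the other 9 genes do not.

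*XIST*, the RNA that silences an X chromosome in female cells, differed between embryos of the same group. It had 1819, 11.9, 2326, 429 and 2144 normalized reads in WT embryos against 2819, 2251, 1804, 33.7 and 1267 in *SOX2* KO embryos. Both groups thus held embryos with little and with much *XIST*. *HDAC8* did not follow it, as nc2, with the least *XIST* of the WT embryos, had 411 and lay in the middle of its group, and ko4, with the least of the *SOX2* KO embryos, had 117 and did so too. *HDAC6* had its lowest value of each group in these same embryos, 156 in nc2 and 191 in ko4. The X-linked *STAG2*, *SMC1A* and *SMS*, and *CITED1*, *ERCC6L* and *PIN4* beside *HDAC8*, also had their lowest values there. The neighbour *PHKA1* had its lowest WT value in nc2 (26.7), and among *SOX2* KO embryos ko4 at 22.2 lay beside the lowest, ko3 at 22.1. *RPS4X* had its lowest *SOX2* KO value in ko4 (4581) but its lowest WT value in nc3 (5077). *NHSL2* was lowest in neither nc2 nor ko4, and the cause was not tested. With log2 *XIST* as a covariate the log2 fold change of *HDAC8* was -1.89, that of *HDAC2* -0.90 (limma adjusted p = 0.00313) and that of *HDAC6* -0.20 (adjusted p = 0.504).

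**Figure D5:**
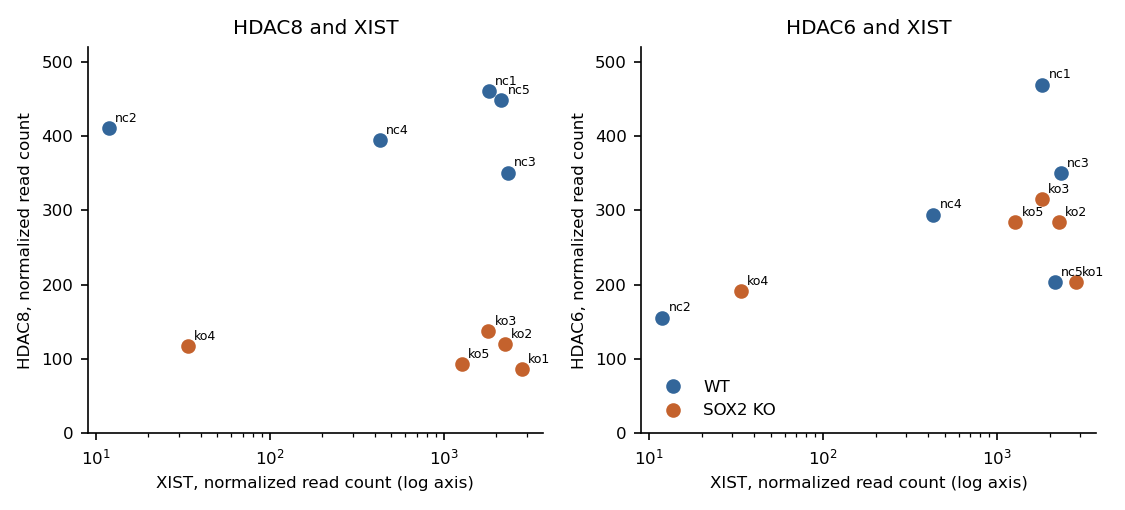
Normalized read counts of *HDAC8* (left) and *HDAC6* (right) against those of *XIST* on a log axis, each point an embryo. *HDAC8* is lower in all *SOX2* KO than in all WT embryos, with low or high *XIST*, with WT embryos at 351 to 461 and *SOX2* KO embryos at 86.8 to 137, and *HDAC6* is lowest in each group where *XIST* is lowest, in nc2 and ko4.

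Genes with a pattern like that of *HDAC8* were ranked by Pearson's r of log2(normalized read count + 1) over the 10 embryos, among 6981 other genes averaging 50 or more. This r is a description, since the embryos fall into 2 groups and the ranking picks genes that separate them. The most alike were *RNF212B* (r = 0.983), a RING finger gene of meiosis, *SCOC* (r = 0.970), *HIST1H2AH* (r = 0.969), a histone H2A gene whose reads may be shared with near-identical copies, *ZFR* (r = 0.969) and *RALGPS2* (r = 0.966). *RNF212B* had 97.7, 91.9, 82.5, 92.5 and 78.5 normalized reads in WT embryos against 21.2, 31.7, 26.7, 32.9 and 24.2 in *SOX2* KO embryos. The most opposed were *TXNDC16* (r = -0.973), a thioredoxin domain gene, *P2RY2* (r = -0.957), a nucleotide receptor, *LOC101905127* (r = -0.949), *PLEKHA6* (r = -0.946) and *LOC101905194* (r = -0.946). *TXNDC16* had 165, 175, 191, 190 and 161 in WT embryos against 422, 320, 357, 360 and 316 in *SOX2* KO embryos. Of the family, *HDAC2* was the most like *HDAC8* at place 219 (r = 0.852), ahead of *HDAC1* at place 1135 (r = 0.660), *HDAC3* at 2238 (r = 0.464), *HDAC6* at 3612 (r = 0.167) and *HDAC10* at 5032 (r = -0.212). The pluripotency factor gene *POU5F1*, at 1481, 998, 1197, 1298 and 1087 in WT embryos against 533, 823, 823, 718 and 717 in *SOX2* KO embryos, was at place 67 (r = 0.912).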

How the data were processed

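RNA of 5 WT and 5 *SOX2* KO early blastocysts was amplified by Smart-seq2, without molecular identifiers. Per the methods, the authors used Trimmomatic for trimming of the 150 bp paired reads, Hisat2 for mapping to the ARS-UCD1.2 build, and featureCounts for counts per gene. Annotation release, strand setting and treatment of multi-mapping reads are not given in the sources used here, so reads of paralogs or overlapping genes may be shared. The deposited values are a normalized signal, read counts divided by the DESeq2 size factor of each embryo. Of 201120 values, 100% were whole multiples (tolerance 0.001) of a step per embryo, which gave the reads back. Among 45 pairs of embryos, 0 were identical. Genes in the table had at least 11 reads in total.

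Columns were assigned to groups by name. The main test was limma 3.58.1 (lmFit, eBayes with trend) on log2(value + 1) over genes averaging 1 or more, in place of the DESeq2 test of the methods, because the values are normalized. DESeq2 1.42.0 and edgeR 4.0.16 (quasi-likelihood) were run on the recovered reads in R 4.3.3, and summaries in Python 3.11.15. The alternatives were 2 other pseudocounts, 4 other scalings, 2 other filters, both count tests, 2 covariates and leaving out each embryo. The tests were tested on simulated data. The members and lists were chosen with earlier results of these data known. Named genes were the members, list genes passing limma's adjusted p, the highest and lowest of each list, 5 tested neighbours on each side of *HDAC8*, the 5 genes most and the 5 least correlated with it, and *SOX2*, *NANOG*, *POU5F1*, *XIST* and *RN18S1*. *SMC3*, *HDAC4*, *HDAC5* and *NR5A1* were named from the lists after their values were seen. Gene order was read from a RefSeq table of another assembly, so no coordinates or sequences are given. Counting error at 3 reads or fewer was treated as the floor. Of the lists, 6 genes had no match by symbol and were not analysed here, and a gene of the lists is not reported here and was left out of their counts.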

Additional observations from a re-analysis of the deposited data

Results flagged for a closer look

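*HDAC11* in *SOX2* KO embryo ko5 lay far from the other 4 embryos of its group. Its normalized read count was 16.1, from 14 reads, against 1.32 to 4.45 in the others. The gap to the nearest embryo was 0.789 of the range of the group, above Dixon's critical value of 0.71 for 5 samples. Of 14 groups examined (7 genes in 2 groups), 1 stood out in this way, where chance gives 0.7.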

How the results depend on the processing

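Over the 22 alternatives the log2 fold change of *HDAC8* ran from -2.02 with equal totals to -1.77 with the *RN18S1* share as a covariate. *HDAC8* was chosen for its fall in these same embryos, so its direction is not a result and the range is a description. Calls among the other 6 deacetylases rose from 0 to 1 (*HDAC2*) with equal totals and with edgeR, and ranged from 0 to 1 when an embryo was left out, with 1 without nc1, nc3 or ko4. Calls among the 89 genes of the lists fell from 4 to 1 with a pseudocount of 5 and to 1 with the *RN18S1* covariate, and ranged from 2 (without nc5 or ko1) to 5 (without nc3, ko2 or ko4). The log2 fold change of *HDAC11* was -0.47 after quantile normalization and -0.79 with the *RN18S1* covariate, and -0.033 (without ko5) to 0.76 without an embryo. Leaving out embryos, that of *HDAC10* ranged from -0.0056 to 0.28 and that of *HDAC6* from -0.33 to 0.069. With the *RN18S1* covariate *HDAC6* was at -0.58. The causes were not tested. Scalings moved the median log2 fold change of all tested genes by -0.27 (quantile normalization) to 0.09 (median log ratio), with -0.11 for equal totals. *HDAC11* was not tested at a mean of at least 10. No paired analysis was possible because ko1 to ko5 do not carry their labels' replicate numbers. *HDAC11* had at most 14 reads in an embryo.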
